A study of Mus musculus with 4 samples.

Results

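The nuclear genes for subunits of the mitochondrial respiratory chain were examined in blood progenitors of the mouse foetal liver, sorted at E13.5. They were taken by name: a gene belonged if a probe set was annotated to its symbol alone and the symbol began with Ndufa, Ndufb, Ndufc, Ndufs or Ndufv (complex I), Sdha to Sdhd (complex II), Uqcr (complex III), Cox4i, Cox5, Cox6, Cox7 or Cox8 (complex IV) or Atp5 (complex V), and the Ndufaf assembly factors were left out. The rule found 86 of the 18193 genes on the array that have a probe set of their own. Of these, 82 are named as subunits, 36 of complex I, 4 of complex II, 8 of complex III, 17 of complex IV and 17 of complex V. The other 4, Sdhaf1 to Sdhaf4, are assembly factors of complex II that share the letters Sdha, and they are given apart. Each gene is represented by its brightest probe set over the 4 arrays. The brighter probe sets of Ndufb4 are annotated to several symbols, so that this gene is represented by a dim one, and Ndufs6, Ndufa11 and Cox7b were not analysed here.

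The sort kept lineage-negative cells that carry both cKit and Sca1, called LSK cells, among which stem cells and multipotent progenitors are found. All came from female embryos of genotype Hes1 GFP/WT, in which GFP reports the transcriptional repressor Hes1, and they were separated into HES1-GFP negative cells (3 arrays) and HES1-GFP positive cells (1 array). Both groups thus carry the same reporter allele, and the comparison the labels set up is between GFP fractions at 1 stage. Whether the negative arrays are separate litters or sorts is not given, so their spread may be partly technical. Values are log2 probe set intensities, and the array medians lay between 74.8 and 76.1 on the linear scale. The reporter gene went against its label: Hes1 was at 8.78, 9.07 and 6.70 in negative replicates 1, 2 and 3 and at 6.57 in the array labelled positive, and that array is named by its label throughout. All 10 of the measured LSK markers exceeded the median probe set level in every array. Ly6a (Sca1) has no probe set of its own. All 5 granulocyte markers also exceeded it in every array, and all 9 B lineage markers in each negative array. By the mean over the arrays, 11016 of all 18193 genes exceeded it, so this count does not single out LSK cells. Of the 10 LSK markers, 5 lay above all negative arrays in the array labelled positive and 1 below. Kit, among those above, was at 9.90, 9.72, 9.68 and 10.13 in the same order. The marker below was Flt3, at 12.12, 11.95, 11.63 and 11.07. With 1 array on one side there is no spread for it. The limma p-values assume that it varies like the negative arrays, and the number of arrays limits every value.

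The respiratory chain moves electrons from NADH (complex I) and succinate (complex II) through coenzyme Q, complex III and cytochrome c to oxygen at complex IV, and complex V uses the resulting proton gradient to make ATP. Most subunits are encoded in the nucleus and imported, while a few core subunits of every complex but the second are encoded by mitochondrial DNA, whose transcripts are not among these genes. Foetal liver stem and progenitor cells divide actively, and the balance of glycolysis and respiration is a known feature of stem cell differentiation in blood. The subunits of a complex are needed in fixed proportions, and their genes are commonly regulated together.

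None of the subunit genes differed between the labels by the test across all genes. limma called 0 of 86 genes at a Benjamini-Hochberg adjusted p under 0.05, with 0% of all 18193 genes called, and 0 of 86 at an unadjusted p under 0.05, against 4.03% of all genes (734). As a description, 74 of the 86 genes were higher in the array labelled positive than the mean of the negative arrays, against 49.8% of all genes and 54.8% of the 11016 genes with a probe set above the median level. The differences were small. Their median was 0.15 log2 units, against -0.001 over all genes and 0.04 over genes above the median level. The median deviation of the members in the 3 negative arrays had an SD of 0.16, so that their median difference was slightly smaller than this spread. Complex I alone was an exception, with a median difference of 0.202 and an SD of 0.191. In each of complexes II to V the SD was the larger.

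The negative arrays differed among themselves. Relative to each gene's mean over the 4 arrays, the members had medians of -0.15, -0.10 and 0.14 in negative replicates 1, 2 and 3, and the median was 0.11 in the array labelled positive. Over all genes the same medians were -0.04, -0.002, 0.03 and -0.001. Replicate 3 was the highest of the 4 arrays for 46 members (28.5% of all genes) and the array labelled positive for 30 (23.6%), while replicates 1 and 2 were the highest for 5 each (21% and 26.8%). Replicate 1 was the lowest for 44 members (31.7% of all genes), replicate 2 for 31 (25.9%), replicate 3 for 4 (19.5%) and the array labelled positive for 7 (23%). Against single arrays, the array labelled positive was higher for 72 members than replicate 1 (54.7% of all genes), for 74 than replicate 2 (49.8%) and for 34 than replicate 3 (46%). The median differences were 0.28, 0.23 and -0.02 log2 units. The array labelled positive lay above the range of the 3 negative arrays for 30 members (34.9%, against 23.6% of all genes) and below it for 7 (8.14%, against 23%), and 49 lay within it. Over all genes 46.6% lay outside it. Among the 83 members above the median level, 30 lay above (26.4% of such genes) and 5 below (20.3%). Without replicate 1 the members above and below numbered 32 (30.1% of all genes) and 10 (34.2%), and without replicate 2 they numbered 31 (31.1%) and 11 (30.3%). Without replicate 3 the array labelled positive lay above the remaining arrays for 68 members (36.1% of all genes) and below it for 8 (31.4%). No member lay 1 log2 unit or more outside the negative range, a position taken by 1.41% of all genes.

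**Figure D1:**
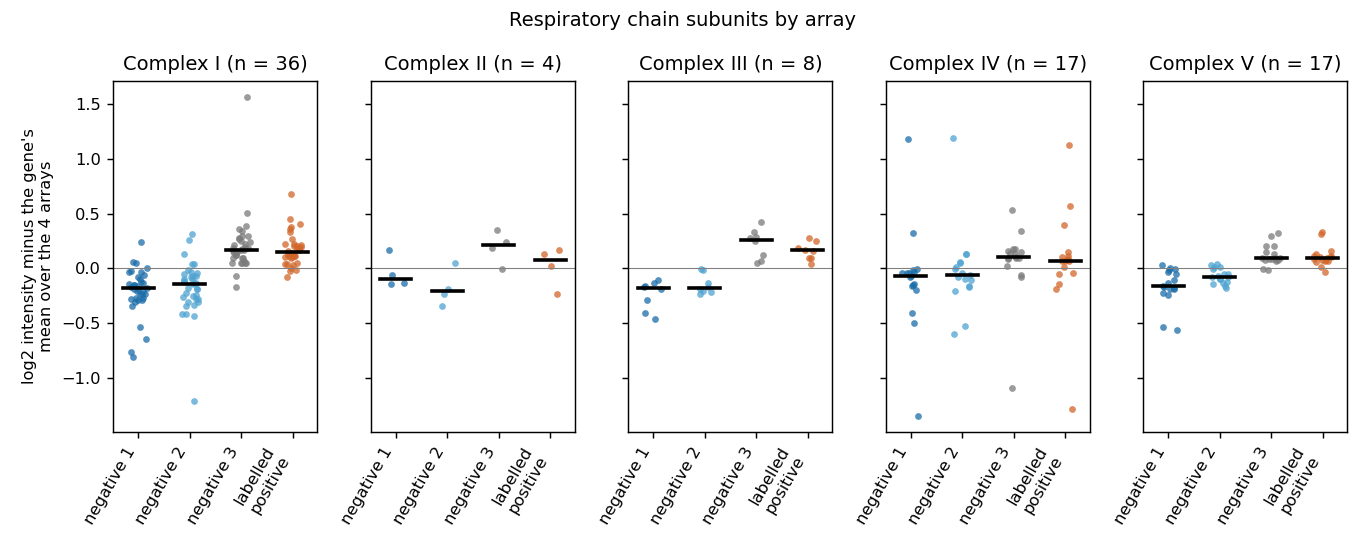
Each point is a subunit gene, plotted by array as its log2 intensity minus its own mean over the 4 arrays, with a panel for each complex and a black bar at the median over genes. In complex I the medians are -0.18, -0.14 and 0.17 in negative replicates 1 to 3 and 0.15 for the array labelled positive. Complexes II to V show the same order of signs.

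Members were steadier between arrays than genes at large, a comparison not matched for brightness. The median span from the lowest to the highest array was 0.41 log2 units over the members and 0.54 over all genes, and the median SD of the negative arrays was 0.20 and 0.24. A span of over 1.5 log2 units was found in 3 members, Cox6a2, Cox7c and Ndufb4, and in 11.8% of all genes. Of the 86 probe sets used, 83 exceeded the median over all probe sets, a log2 mean of 6.23. The members below it were Cox7b2, Cox8b and Ndufb4. Of all 18193 genes, 11016 had a probe set above that level. Whether members are steadier than genes of similar brightness was not tested.

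The promoters of the members were searched for the letters of motifs known from respiratory genes, and several were more frequent there than over all genes of the array. RefSeq windows of 300 bases on GRCm38.p6, from 250 before to 50 after the annotated start, were at hand for 71 members (76 windows), and every motif was searched on both strands. The core of the NRF1 motif, GCGCATGCG, was found in 7 windows (9.21%) and in 2.7% of the 18006 windows of array genes. With any base in its centre, GCGCANGCG, it was found in 21 windows (27.6%, against 9.89%), a count that includes the 7. The ETS motif bound by GABP, CCGGAAG, was found in 20 windows (26.3%, against 13%), and the YY1 motif AAGATGGC in 9 (11.8%, against 3.39%). The CCAAT letters were found in 39.5% of the windows and 37.4% of those of array genes, and TATAAA in 13.2% and 9.75%. These are counts of letters and not of bound sites.

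The promoters of Cox6a1, Cox6b1, Cox6b2, Atp5g2, Atp5k and Ndufb2 are shown, to set common subunits beside the alternative form Cox6b2 and beside Ndufb2, which differed most in complex I. The 250 bases before the start are printed, 5′ to 3′ on the strand of the gene, from RefSeq (GRCm38.p6). Capitals mark GCGCATGCG, CCGGAAG and AAGATGGC on either strand, and matches of the first on both strands overlap. The printed bases of Cox6a1 hold NRF1 and ETS letters, those of Cox6b1 an ETS match, and those of Atp5g2 and Atp5k NRF1 letters. Cox6b2 and Ndufb2 hold no match of the 3 motifs in these bases. The windows of most of the 71 members hold none either, among them those of the common subunits Cox5a, Cox5b, Cox7a2 and Atp5b. The common subunits shown are therefore not typical of the members: all hold a match, and Cox6a1, Atp5g2 and Atp5k are among the 7 genes with GCGCATGCG. The lack of a match is thus not particular to Cox6b2 and Ndufb2.
Cox6a1 (chr5:115348959-115349208, minus strand): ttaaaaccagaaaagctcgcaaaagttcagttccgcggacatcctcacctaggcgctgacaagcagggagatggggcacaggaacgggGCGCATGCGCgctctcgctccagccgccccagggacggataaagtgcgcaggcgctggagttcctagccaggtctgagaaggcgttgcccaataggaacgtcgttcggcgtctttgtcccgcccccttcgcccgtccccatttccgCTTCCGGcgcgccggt
Cox6b1 (chr7:30626115-30626364, minus strand): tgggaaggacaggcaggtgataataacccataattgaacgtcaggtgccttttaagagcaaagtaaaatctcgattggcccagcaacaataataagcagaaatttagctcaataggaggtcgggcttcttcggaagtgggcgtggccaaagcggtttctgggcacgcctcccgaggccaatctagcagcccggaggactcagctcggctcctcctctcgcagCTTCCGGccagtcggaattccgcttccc
Cox6b2 (chr7:4753095-4753344, minus strand): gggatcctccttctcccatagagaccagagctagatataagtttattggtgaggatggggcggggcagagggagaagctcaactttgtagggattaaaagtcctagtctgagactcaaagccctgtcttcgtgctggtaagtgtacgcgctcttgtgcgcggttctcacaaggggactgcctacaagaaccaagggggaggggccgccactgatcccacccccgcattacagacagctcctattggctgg
Atp5g2 (chr15:102671048-102671297, minus strand): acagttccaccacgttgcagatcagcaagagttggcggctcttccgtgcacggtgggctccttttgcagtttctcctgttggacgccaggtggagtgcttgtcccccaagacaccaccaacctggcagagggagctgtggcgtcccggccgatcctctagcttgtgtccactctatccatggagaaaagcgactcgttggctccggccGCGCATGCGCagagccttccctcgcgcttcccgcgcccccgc
Atp5k (chr5:108434400-108434649, minus strand): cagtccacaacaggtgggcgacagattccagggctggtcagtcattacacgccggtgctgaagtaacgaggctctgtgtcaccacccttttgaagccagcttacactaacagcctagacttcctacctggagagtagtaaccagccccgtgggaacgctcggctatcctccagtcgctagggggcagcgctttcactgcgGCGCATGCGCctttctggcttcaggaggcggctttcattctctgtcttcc
Ndufb2 (chr6:39592315-39592564, plus strand): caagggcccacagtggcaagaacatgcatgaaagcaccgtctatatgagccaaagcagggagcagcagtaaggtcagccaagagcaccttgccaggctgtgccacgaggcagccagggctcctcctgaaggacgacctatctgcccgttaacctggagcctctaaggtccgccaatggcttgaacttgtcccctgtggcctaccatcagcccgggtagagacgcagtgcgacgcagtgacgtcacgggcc

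Complex I, the NADH dehydrogenase and entry point of electrons from NADH, was represented by 36 genes with a median difference of 0.20 on the log2 scale. Of these, 33 were higher than the mean of the negative arrays, against 49.8% of all genes. Above all 3 lay 14 (38.9%, against 23.6% of all genes), and below all 3 lay 0 (against 23%). The core subunits carry the flavin and the iron-sulfur clusters. Ndufs8, which binds 2 of these clusters, was at 11.28, 11.32 and 11.72 in negative replicates 1, 2 and 3 and at 11.92 in the array labelled positive, above all of them. Ndufv1, the flavin-binding subunit, was at 11.71, 11.41 and 11.89 against 11.95, and Ndufs7, at 12.14, 12.23 and 12.66, was not exceeded by the array labelled positive at 12.62. The other core subunits measured, Ndufv2, Ndufs1 and Ndufs3, differed by 0.22, 0.01 and 0.04, and the last pair turned below 0 with cyclic loess.

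Among the accessory subunits of complex I, which surround and stabilise the core, Ndufb2 differed most. It was at 9.42, 9.77 and 10.69 in the negative arrays and at 10.87 in the array labelled positive, a difference of 0.91 with a limma standard error of 0.57 and an adjusted p of 1.00. The array labelled positive was close to replicate 3 here and well above the others. Another bright probe set of Ndufb2 differed by 0.85, and a dimmer one by 0.10. Ndufb6 was at 11.32, 10.95 and 11.48 against 11.79, and Ndufa9, a subunit at the junction of the arms, at 11.06, 11.02 and 11.39 against 11.61. Both lay above all negative arrays. Ndufb4, at 5.06, 4.65 and 7.43 against 6.32, had the widest span in the complex, and the highest array was negative replicate 3.

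The members of complex I on the lower side were few and differed little. Ndufs5 was at 10.22, 9.97 and 10.63 against 10.16, within the negative range, and its difference of -0.11 became 0.07 without replicate 3. Ndufb7 differed by -0.03 and Ndufa8 by -0.02, or by 0.15 without replicate 3. Another probe set of Ndufb7 differed by 0.40. Ndufab1, the mitochondrial acyl carrier protein, which also serves lipoic acid synthesis, was at 11.34, 11.61 and 11.86 against 11.91, and its 3 dim probe sets differed by 0.05, -0.35 and -0.44. The bright probe set of Ndufs4, a subunit mutated in Leigh syndrome, differed by 0.06, and its other 3 by 0.26, -0.22 and -0.96. For Ndufa5 the probe sets differed by 0.17 and -0.02.

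**Figure D2:**
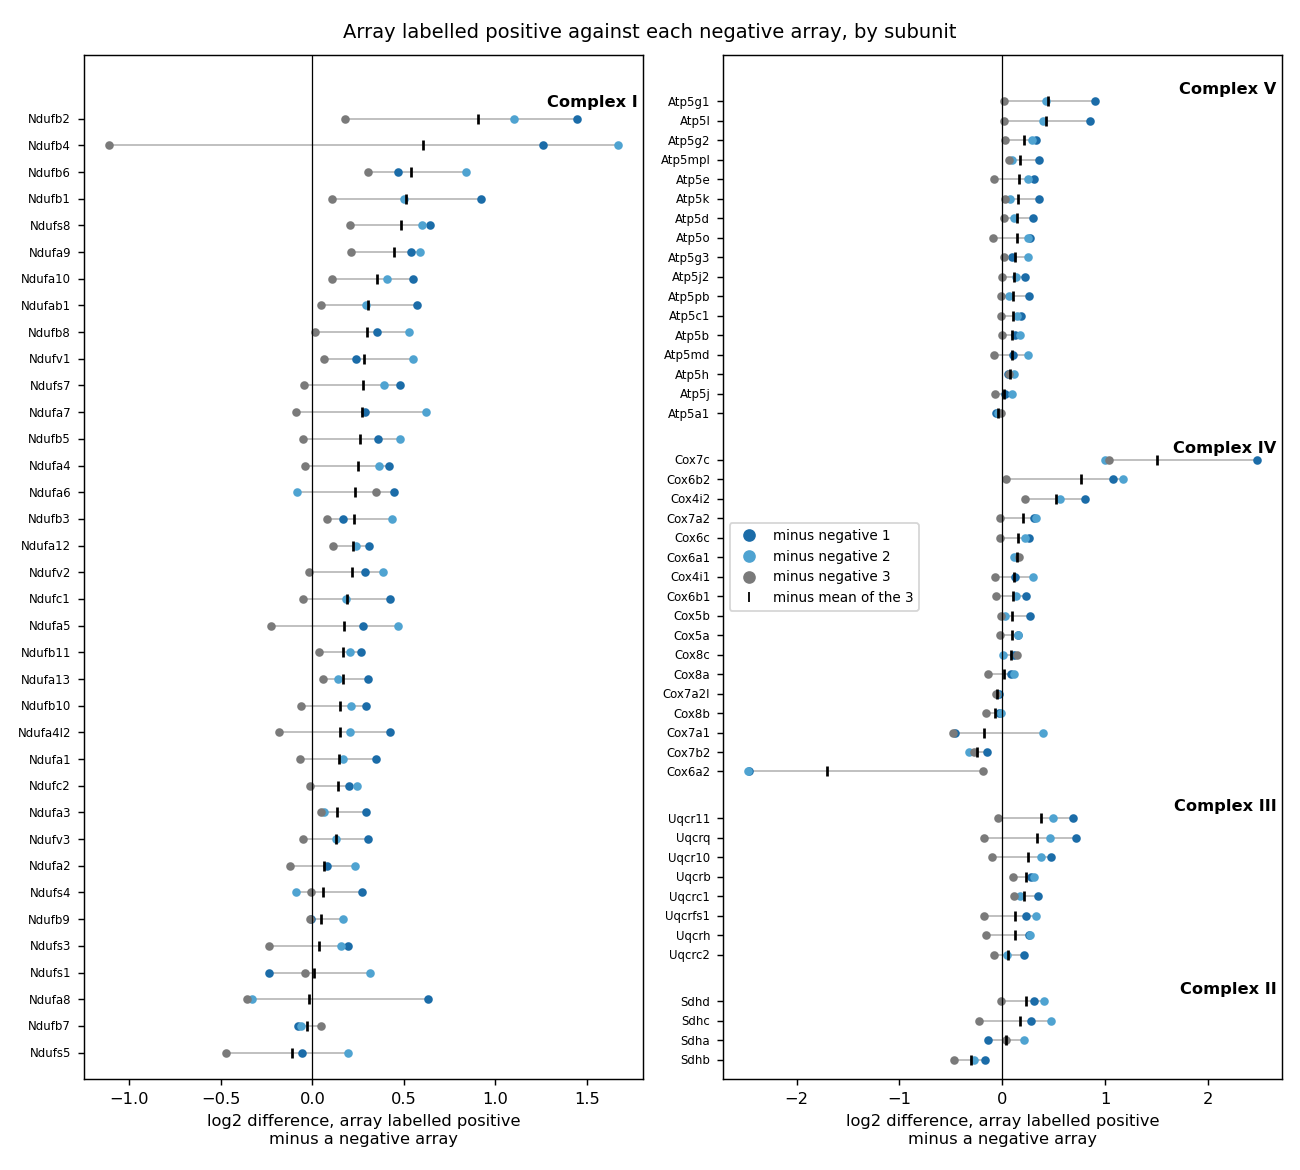
Each row is a subunit gene, with the log2 difference of the array labelled positive from each negative array (points) and from their mean (black tick). Most points against negative replicates 1 and 2 lie right of 0, and those against negative replicate 3 scatter about 0. The black ticks of Cox6a2 and Cox7c lie farthest left and right, at -1.71 and 1.501.

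Complex II, the succinate dehydrogenase shared with the citric acid cycle, is encoded wholly in the nucleus. The median over its 4 subunits was 0.10, which turned to -0.03 when the probe sets of each gene were averaged and to -0.01 without replicate 2. Sdha, the flavoprotein, was at 12.06, 11.71 and 11.89 against 11.92, within the negative range, and the other probe sets differed by 0.02, -0.72 and -0.80, the last pair being dim. Sdhb, the iron-sulfur subunit, was at 11.20, 11.31 and 11.50 against 11.03, below all negative arrays, with a difference of -0.31. The membrane anchors Sdhc and Sdhd were at 10.76, 10.57 and 11.26 against 11.04 and at 11.49, 11.38 and 11.81 against 11.79, both within the range. Of the assembly factors, Sdhaf3 was at 7.41, 7.47 and 7.63 against 8.07, above all negative arrays, and its unadjusted limma p was 0.0549. Sdhaf1 was at 9.47, 10.01 and 9.38 against 9.28, below all of them. Sdhaf2 and Sdhaf4 differed by 0.12 and -0.14, within the range. The 2 probe sets of Sdhaf2 differed by 0.12 and -0.49.

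Complex III, the cytochrome bc1 complex that passes electrons from coenzyme Q to cytochrome c, had 8 genes with a median difference of 0.22. All 8 were higher than the mean of the negative arrays (49.8% of all genes), also after cyclic loess normalization (48.8%). Without replicate 1, 7 of the 8 were higher (48.0%). Only Uqcrb and Uqcrc1 lay above all 3 negative arrays (25%, against 23.6% of all genes), and 0 lay below (against 23%). The small subunits Uqcrq, Uqcr11 and Uqcr10 had the widest spans. Uqcr11 was at 11.00, 11.20 and 11.73 against 11.68, and Uqcrq at 11.21, 11.46 and 12.10 against 11.92, so that negative replicate 3 was the highest array in both. The dim probe sets of Uqcrq were within -0.26 to 1.20. Uqcrh, the hinge protein that contacts cytochrome c1, was at 12.50, 12.50 and 12.92 against 12.76. The core protein Uqcrc2 differed by 0.06, or by -0.02 without replicate 1, and the Rieske iron-sulfur protein Uqcrfs1 by 0.12.

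Complex IV, cytochrome c oxidase, showed the widest range of differences, from -1.71 to 1.501 log2 units over 17 genes, with a median of 0.09. Of these genes 12 were higher than the mean of the negative arrays, against 49.8% of all genes. Above all 3 lay 5 (29.4%, against 23.6% of all genes) and below all 3 lay 4 (23.5%, against 23%), both near those shares. Several ubiquitous subunits with bright probe sets varied little, and Cox7c, read by a much dimmer one, did not. Cox4i1 was at 12.52, 12.34 and 12.71 against 12.64, Cox5a differed by 0.09, Cox5b by 0.09 and Cox6c by 0.15. The other probe sets of Cox5b differed by -0.08 to 0.18. Cox7a2l, a relative of Cox7a2 that joins complexes III and IV in supercomplexes, was the steadiest of the complex, at 12.77, 12.79 and 12.79 against 12.73. Cox7c was at 5.59, 7.06 and 7.03 against 8.06, the widest difference upward, 1.501 with a limma standard error of 0.72 and an adjusted p of 1.00. The array labelled positive lay above all negative arrays there, and the other probe set of Cox7c differed by 0.89. The means of these probe sets over the arrays were 6.93 and 6.18, the second below the median level of 6.23. The size of this difference thus rests on dim probe sets. Cox7b2 was at 2.89, 3.07 and 3.02 against 2.75, among the dimmest probe sets.

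Complex IV has alternative subunits whose use depends on tissue, and 2 of them differed strongly between arrays. Cox6a2, the form of heart and skeletal muscle, was at 11.17, 11.18 and 8.90 in the negative arrays and at 8.71 in the array labelled positive. The difference was -1.71, with a limma standard error of 1.10 and an adjusted p of 1.00, and it was -2.46 without replicate 3 and -1.33 without either of the others. Replicate 3 and the array labelled positive lay far below the other arrays, and the other probe set, at 7.19, 7.73, 5.79 and 6.02 in the same order, placed the arrays likewise but with the array labelled positive above replicate 3. The common form Cox6a1 was at 13.19, 13.23 and 13.17 against 13.34. Cox6b2, a form known from testis, ran the other way: it was at 10.04, 9.94 and 11.08 in the negative arrays and at 11.11 in the array labelled positive, a difference of 0.76 with a limma standard error of 0.55 and an adjusted p of 1.00. Its common form Cox6b1 was at 12.86, 12.96 and 13.15 against 13.09. Cox4i2, a form induced by low oxygen in lung, was at 7.66, 7.90 and 8.24 against 8.45, above all negative arrays.

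The remaining alternative subunits differed less. Cox7a1, the muscle form, was at 6.94, 6.09 and 6.96 against 6.48, and its common relative Cox7a2 at 12.91, 12.89 and 13.24 against 13.22. Both lay within the negative range. Cox8b differed by -0.07 and lay below all negative arrays, and Cox8c differed by 0.09 and lay above them. Cox8a, the common form, differed by 0.02, or by -0.03 after cyclic loess normalization. Ndufa4, named as a complex I subunit and now known to belong to complex IV, was at 12.26, 12.32 and 12.72 against 12.68, and its hypoxia-induced relative Ndufa4l2 at 8.95, 9.16 and 9.55 against 9.37. In both of these the order of the arrays was the same, with replicate 3 the highest.

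**Figure D3:**
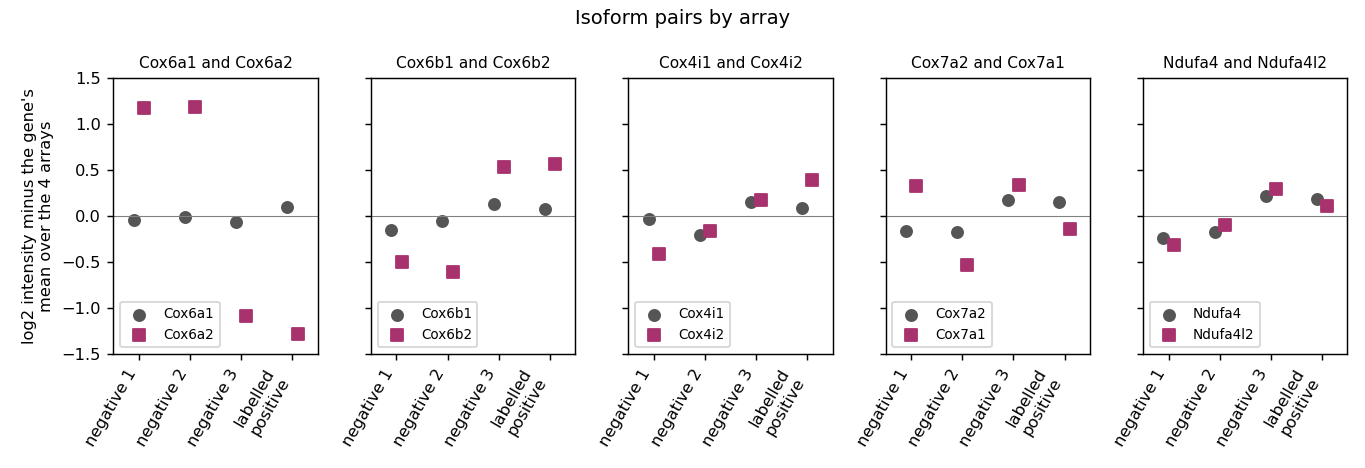
Points give the log2 intensity of each gene minus its own mean over the 4 arrays, for 5 pairs of a common subunit (circles) and an alternative form (squares), by array. Cox6a2 is high in negative replicates 1 and 2, Cox6b2 is high in negative replicate 3 and the array labelled positive, and the common forms Cox6a1 and Cox6b1 lie near 0 in all arrays.

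Complex V, the ATP synthase, had 17 genes with a median difference of 0.12. Of these, 16 were higher than the mean of the negative arrays, against 49.8% of all genes. Above all 3 lay 8 (47.1%, against 23.6% of all genes) and below all 3 lay 1 (5.88%, against 23%). The catalytic head varied little. Atp5a1, the alpha subunit, was at 13.57, 13.55 and 13.52 against 13.51, below all negative arrays by very little, and Atp5b, the catalytic beta subunit, at 12.86, 12.81 and 12.99 against 12.98. The proton-carrying ring is built of subunit c, which Atp5g1, Atp5g2 and Atp5g3 all encode. Atp5g1 differed most in the complex, at 11.45, 11.92 and 12.34 against 12.35, and the other forms differed by 0.21 and 0.12. The dim probe set of Atp5g1 differed by 1.03, and those of Atp5g2 by -0.14 and 0.02. Atp5l, subunit g of the membrane part where dimers form, was at 11.30, 11.76 and 12.13 against 12.15. For both Atp5g1 and Atp5l the array labelled positive equalled replicate 3 within 0.02 log2 units. Atp5j, coupling factor 6, differed by 0.01, or by -0.03 after cyclic loess normalization. The bright probe set of Atp5c1, the central shaft, differed by 0.10, while its other one, much less bright, differed by -1.24.

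Separate probe sets of a gene read the same 4 RNA samples and are no replicates, but show how far a value depends on the probe set chosen. Of the 149 member probe sets above the median level, 130 were higher in the array labelled positive than the mean of the negative arrays, against 54.5% of all such probe sets on the array. Of the 45 members with more than 1 such probe set, 40 had all of them on the same side, against 48.1% of all such genes. When dim probe sets are counted too, this held for 39 of 51, against 42.4%.

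Lists of other mitochondrial genes are given for comparison, and 0 genes in them passed limma over all genes. Mitochondrial ribosomal proteins, which translate the subunits encoded by mitochondrial DNA, showed a median difference of 0.20 for 76 genes. Higher than the negative mean were 60 of them, against 49.8% of all genes. Above the negative range lay 33 (43.4%, against 23.6% of all genes) and below it 6 (7.89%, against 23%). Mrps27 was at 7.94, 8.04 and 9.22 against 9.38, and Mrps17 at 9.14, 9.72 and 10.45 against 10.73. Import proteins (Timm and Tomm) had a median of 0.17 over 23 genes, 21 of them higher, with Timm44 at 9.77, 10.02 and 9.76 against 10.49 and Timm13 at 10.59, 10.93 and 10.71 against 11.34. In these examples the array labelled positive lay above all negative arrays. Enzymes of the citric acid cycle and pyruvate dehydrogenase had a median of 0.15 over 18 genes, 12 of them higher. Without replicate 1 their median was 0.036 with 10 higher, against 48.0% of all genes. The differences were 1.23 for Pcx, pyruvate carboxylase, and 0.59 for Dld with all arrays. Exchange carriers had a median of 0.09 over 9 genes, 6 of them higher, and of 0.037 without replicate 2, with 0.42 for Vdac3, an outer membrane channel, and -0.33 for Ckmt1.

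In the remaining lists the members were split more evenly or the median was near 0. Over all genes 49.8% were higher than the negative mean, and 50.3% without replicate 2, so that several of these counts were near the share of all genes. Assembly factors had a median of 0.10 over 40 genes, 23 higher. Above the range lay 11 (27.5%, against 23.6% of all genes) and below it 9 (22.5%, against 23%). Without replicate 2 the median was -0.054, with 18 higher, 12 above (30%, against 31.1% of all genes) and 15 below (37.5%, against 30.3%). Sco1, a copper chaperone of complex IV, was at 5.97, 5.71 and 8.05 against 7.63, and Ndufaf6 at 7.88, 7.19 and 7.94 against 8.67. Mobile carriers and coenzyme Q synthesis had a median of 0.03 over 14 genes, 8 higher, and 0.24 without replicate 3. Coq8a, a kinase-like protein of that pathway, was at 10.01, 9.07 and 8.88 against 7.74, below all negative arrays, and Coq5, a methyltransferase of the pathway, differed by 0.77. Regulators of mitochondrial biogenesis had a median of -0.002 over 15 genes, 7 higher, with 0.79 for Tfb1m and -0.55 for Hif1a. Glycolysis genes had a median of 0.01 over 20 genes, 10 higher, and 0.12 when the probe sets of a gene were averaged. Eno2 differed by -0.98 and Slc16a3, a lactate exporter, by 0.63. Among these 8 lists, only the ribosomal protein list had as large a shift between replicate 1 and the array labelled positive as complex I, with medians of 0.39 and 0.31. Against replicate 2 the import list shifted more than complex I, with 0.32 and 0.27. Against replicate 3 both lists exceeded complex I, with 0.04 for import, 0.02 for ribosomal proteins and -0.01 for complex I.

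**Figure D4:**
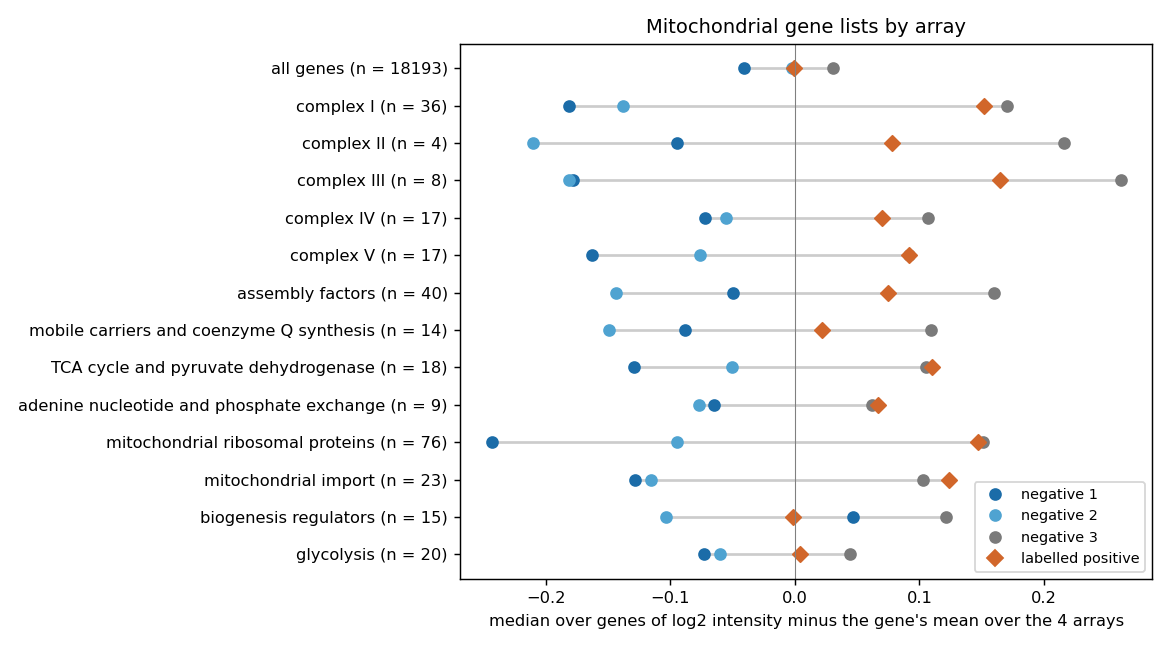
Points are the medians over the genes of a list of log2 intensity minus each gene's mean over the 4 arrays, with a colour for each array and a diamond for the array labelled positive. All genes lie near 0. The 5 complexes lie left of 0 in negative replicates 1 and 2 and right of 0 in the other arrays. So do the comparison lists other than biogenesis regulators, with glycolysis barely right of 0 in the array labelled positive. Glycolysis spans least among the gene lists other than all genes.

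Summed markers of some other cell types also set replicates 1 and 2 apart from replicate 3 and the array labelled positive. This was plain for macrophage, B lineage and granulocyte markers. The summed linear intensity of 10 macrophage markers ranged from 3782 to 25726 in the negative arrays, with replicate 3 the lowest, and was 4169 in the array labelled positive. Of these markers, 8 to 10 were above the median level in each array. The sum of 9 B lineage markers ranged from 4314 to 26020 in the negative arrays, again with replicate 3 the lowest, and was 4204 in the array labelled positive. All 9 were above the median level in each negative array, and 6 in the array labelled positive. Granulocyte markers ran the other way, with sums over 5 genes of 7182 to 23253 and of 23609. Erythroid markers (6 genes) summed to 14173 to 18294 and to 17877, hepatoblast markers (6) to 1003 to 1876 and to 1366, and endothelial markers (8) to 3303 to 4802 and to 2699, while the 10 LSK markers summed to 17900 to 20565 and to 18851. The LSK sums did not set the arrays apart in this way, and the hepatoblast sum of replicate 2, 1411, was close to that of the array labelled positive. In the endothelial list only Cdh5, Pecam1 and Kdr followed the split. Tek ran the other way, and Emcn was highest in replicate 3. No marker was listed at 0. In bulk RNA fewer cells of a type and less RNA per cell cannot be told apart, and the part of these markers in the respiratory chain values was not tested. The difference between the 3′ and 5′ probe sets of the Gapdh control transcript, a sign of RNA integrity, was 0.78, 0.77 and 0.67 log2 units in the negative arrays and 0.65 in the array labelled positive. For Actb it was -0.29, -0.31 and -0.35 against -0.35, and for 18S it was 0.50, 0.53 and 0.51 against 0.50, with no such grouping of arrays in 18S. The part of these differences was not tested either.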

How the data were processed

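RNA was purified on columns, and 5 ng of it was amplified and labelled, per the labels' protocols. The authors deposited linear intensities per probe set, made with RMA (background correction, quantile normalization, probe summary), per the submitters' processing notes; its version is not given in the sources used here. Quantile normalization equalizes arrays, and hides any change in the RNA content of a cell. Values were turned to log2 with no pseudocount. Of 45101 probe sets, 64 controls were set aside and 34945 with 1 symbol were used, the one with the highest mean per gene (18193 genes). No filter on level was applied. Gene IDs of all 86 members matched the GRCm38.p6 gene table.

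The fit was limma 3.58.1 (R 4.3.3), lmFit and eBayes, positive against negative over all genes, as a two-sided test, called at a Benjamini-Hochberg adjusted p under 0.05. It was run on simulated data in which all 4 arrays had the same spread and the changes were larger than those of most members. That run cannot check whether the lone positive array varies like the negative ones, nor how differences as small as these are called. Counts outside the negative range use no model. The members, gene lists and tests were chosen with earlier results of these data known. Named were Hes1, the extremes of each complex (all of complex II), members 0.5 log2 units outside the negative range or spanning over 1.5, tissue isoforms, members whose probe sets differ in direction and the 2 largest differences per list. Further genes were named for their function as core or common subunits, or as close neighbours of these, after their values were seen. Alternatives were cyclic loess, a filter at the median level, averaged probe sets, choice of probe sets on negative arrays, trend and robust eBayes, current symbols, subunits only and leaving out each negative array. Promoter windows are RefSeq's (GRCm38.p6).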

Additional observations from a re-analysis of the deposited data

How the results depend on the processing

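limma called 0 genes, and 0 members, under every alternative run, with 385 to 1479 genes and 0 to 4 members at an unadjusted p under 0.05. The median difference of the members stayed above 0 throughout, at 0.10 with cyclic loess, 0.16 with averaged probe sets, 0.15 with the 82 subunits alone and 0.10 to 0.23 when a negative array was left out. The number of members above the negative range was 31 to 68 without 1 negative array, highest without replicate 3, and the number below it 8 to 11, highest without replicate 2, where fewer arrays give a narrower range. The glycolysis median was 0.12 with averaged probe sets and 0.032 to 0.09 without 1 negative array, and that of mobile carriers and coenzyme Q synthesis -0.025 to 0.24, the highest being without replicate 3. Without 1 negative array the medians of complexes I to V were 0.13 to 0.30, -0.014 to 0.20, 0.14 to 0.29, 0.063 to 0.15 and 0.080 to 0.18. Those of the other lists were -0.054 to 0.11 for assembly factors, 0.036 to 0.22 for the citric acid cycle, 0.037 to 0.11 for exchange carriers, -0.018 to 0.066 for biogenesis regulators, 0.14 to 0.31 for ribosomal proteins and 0.12 to 0.24 for import. With cyclic loess the medians of mobile carriers and of glycolysis were -0.023 and -0.040.

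Over all 86 members and the other named genes, these differences changed sign, and the cause was not tested. With cyclic loess they were Atp5j (-0.030), Cox8a (-0.029), Ndufs1 (-0.043), Ndufs3 (-0.012) and Sdha (-0.011). With averaged probe sets they were Atp5c1 (-0.57), Cox8a (-0.0036), Cox8c (-0.014), Ndufab1 (-0.028), Ndufb7 (0.18), Ndufs4 (-0.22), Sdha (-0.36) and Sdhaf2 (-0.18). When a negative array was left out they were Atp5j (-0.026 to 0.057), Cox8a (-0.028 to 0.097), Ndufa2 (-0.021 to 0.16), Ndufa8 (-0.34 to 0.15), Ndufb9 (-0.011 to 0.079), Ndufs1 (-0.14 to 0.13), Ndufs3 (-0.040 to 0.17), Ndufs4 (-0.049 to 0.13), Ndufs5 (-0.26 to 0.071), Sdha (-0.053 to 0.12), Sdhaf2 (-0.034 to 0.29), Sdhaf4 (-0.51 to 0.081) and Uqcrc2 (-0.019 to 0.13). No paired analysis was possible because the groups share only replicate number 1. No detection calls were used, so that dim probe sets cannot be told from background.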
